A study of Homo sapiens with 6 samples.

Results

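The transcripts of the apoptosis machinery were followed after silencing of GNE in Capan-1, an established cell line from a human pancreatic carcinoma. The set held 47 genes chosen by function: the BCL2 family, the proteins that mitochondria release, caspases, death receptors with their adaptors, inhibitor of apoptosis proteins, and a few further regulators and nucleases. Each gene stood on 1 probe set, the brightest on average of those assigned to no other gene. Probe sets prone to cross-hybridisation were passed over, even if brighter, unless a gene had no other. Of the 47 genes, 44 had such a probe set, and 42 of these passed the filter for testing, a mean log2 value above 4 over all arrays. They stood among 10731 genes tested in all. BBC3 was measured only by a probe set shared with other genes, so it has no value here, and BIRC3 and RIPK1 were not analysed here.

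A first group of 3 arrays came from cells with siRNA (small interfering RNA) directed at GNE, called siGNE and labelled as knock-down of the GNE mRNA. The control group of 3 arrays came from cells transfected with allStar, with the GNE mRNA labelled unchanged. GNE encodes the enzyme that starts sialic acid synthesis, and the series title links it to apoptosis. Both groups were transfected 2 times at an interval of 48 h and collected 72 h after the second transfection. The line is a single cell line without stroma or immune cells, and how many siRNAs against GNE were used is not given in the sources used here. Arrays carry the numbers 1 to 3 in each group, and arrays of one number are called a pair. The labels do not say whether arrays came from separate cultures, so the replicate error behind each p-value may be technical only.

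Apoptosis runs along 2 routes that meet at the caspases, the proteases that dismantle the cell. In the mitochondrial route, BH3-only proteins sense stress and release BAX and BAK1 from anti-apoptotic relatives such as BCL2, BCL2L1 and MCL1. BAX and BAK1 then open the outer mitochondrial membrane, and cytochrome c joins APAF1 to activate CASP9. In the receptor route, ligands such as TNFSF10 (TRAIL) bind death receptors, which activate CASP8 through the adaptor FADD. Inhibitor of apoptosis proteins restrain caspases or act as ubiquitin ligases at the receptors, and many of these steps are set by protein cleavage and binding rather than by transcript level.

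GNE was lower after its siRNA, on every array. Its log2 values were 11.12, 11.47 and 10.86 in control and 8.39, 9.86 and 9.57 in siGNE cells of pairs 1, 2 and 3. The groups did not overlap, and the difference of -1.88 (SE 0.29) left 27.2% of the control level (limma adjusted p 0.0348 with the pair as a block and 0.131 without it). An exact permutation test (two-sided) of the GNE values had p = 0.1, and 3 arrays against 3 cannot give less.

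The cells read as ductal epithelium. All 7 ductal markers (KRT7, KRT8, KRT18, KRT19, EPCAM, CDH1 and CEACAM6) lay between 13.12 and 15.45 on every array. None of the 3 leukocyte, 4 endothelial and 4 acinar or islet markers with a probe set had a mean above 4. Of the 5 fibroblast markers 1 was above 4, COL1A1, which rose from 8.03 to 8.74 (limma adjusted p 0.0441 with the block and 0.512 without it), while COL1A2, PDGFRB, DCN and THY1 were below 4. The summed log2 level of the fibroblast list ran from 17.9 to 19.4 in control and from 18.7 to 19.9 in siGNE arrays, and its part in the results was not tested. Array medians were between 2.96 and 3.02, so values near 3 are close to background.

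Most transcripts of the apoptosis machinery differed little between siGNE and control cells. CASP9, the initiator caspase of the mitochondrial route, rose by 0.59 on the log2 scale (SE 0.09, n = 3 pairs), or 1.51-fold. BIRC2, the inhibitor of apoptosis protein also known as cIAP1, fell by 0.69 (SE 0.11). These were the members called in limma with the replicate block, at adjusted p of 0.0334 and 0.0348 over all 22085 tested probe sets. They make 2 of 42 members, or 4.76%, against 9.9% of all tested genes called in the same fit (4.11% rose and 5.79% fell). With 2 genes called, the gap to that background rests on few genes and was not tested. The classes below are small, so none called in a class is no result about that class. Total RNA cannot tell a change in every cell from a change in some of them.

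The calls depended on the pairing of the arrays. Without the block 0 of the 42 members passed in limma (lowest adjusted p 0.124, with 4 members, or 9.52%, at an unadjusted p under 0.05, against 16.3% of all tested genes). Of all 10731 genes 3 passed, or 0.028%. Leaving out pair 1, 2 or 3 also left 0 members called, with 8, 5 and 5 at an unadjusted p under 0.05 in fits with a pair fewer. With a filter at a mean above 6 the count was 6, and with a trended prior variance it was 7, CASP9 and BIRC2 among them both times. The share of all tested genes was not computed for these settings or with a pair left out, so these counts have no background. With the block, 9 members (21.4%) had an unadjusted p under 0.05, against 32.5% of all tested genes.

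The sizes of the differences bound what these arrays allow. Over the 42 members the log2 differences ran from -0.69 to 0.59 with a median of -0.02, the same as the median of -0.02 over all tested genes. The median size without sign was 0.15 for the members and 0.19 for all tested genes. Of the 42 members, 34 differed by less than 0.25 in either direction, as did 61.6% of all tested genes. The gap between these shares was not tested. Of all tested genes, 6.68% differed by more than the member with the largest difference. The 95% interval of the difference came from the limma fit with the block and was not adjusted for the number of genes. On the probe sets used, it lay within a 2-fold change in either direction for all 42 members. The same was true of 91.7% of all tested genes. The half-width of that interval was 0.24 at the median and ran from 0.21 to 0.73. Some other probe sets of members had intervals past 2-fold, such as BAG1 (-1.39 to -0.35), TNFSF10 (-1.14 to -0.14) and TNFRSF10B (0.06 to 1.17). Intervals also depend on the block: the SE of TNFSF10 was 0.16 with it and 0.62 without it.

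**Figure D1:**
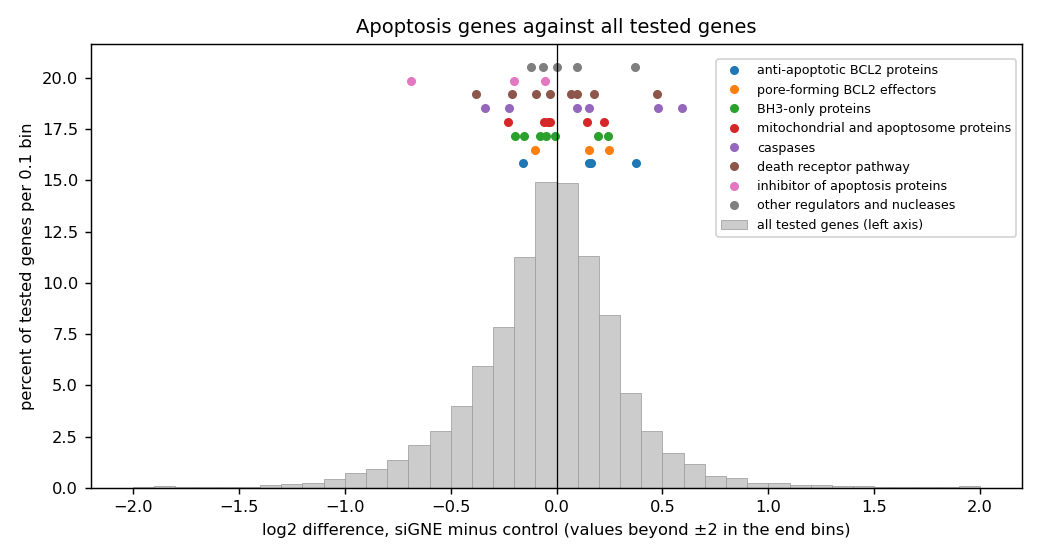
The grey bars give the percent of the 10731 tested genes in each bin of the log2 difference, siGNE minus control, and the coloured points above them give the 42 apoptosis genes by class, with no scale of their own in height. All points lie between -0.69 and 0.59, within the body of the grey distribution.

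The direction of the differences was divided. Of the 42 members, 13 were higher in all 3 pairs (31.0%, against 27% of all tested genes), 9 were lower in all 3 pairs (21.4%, against 30.9%) and 20 had pairs of both signs. Together 52.4% kept one sign, against 57.9% of all tested genes. For 7 members (16.7%) the siGNE and control values did not overlap, 3 above and 4 below, against 23.3% of all tested genes. The share of members higher in all pairs was above that of all tested genes, and the other 3 shares were below it. These gaps rest on few genes and were not tested.

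**Figure D2:**
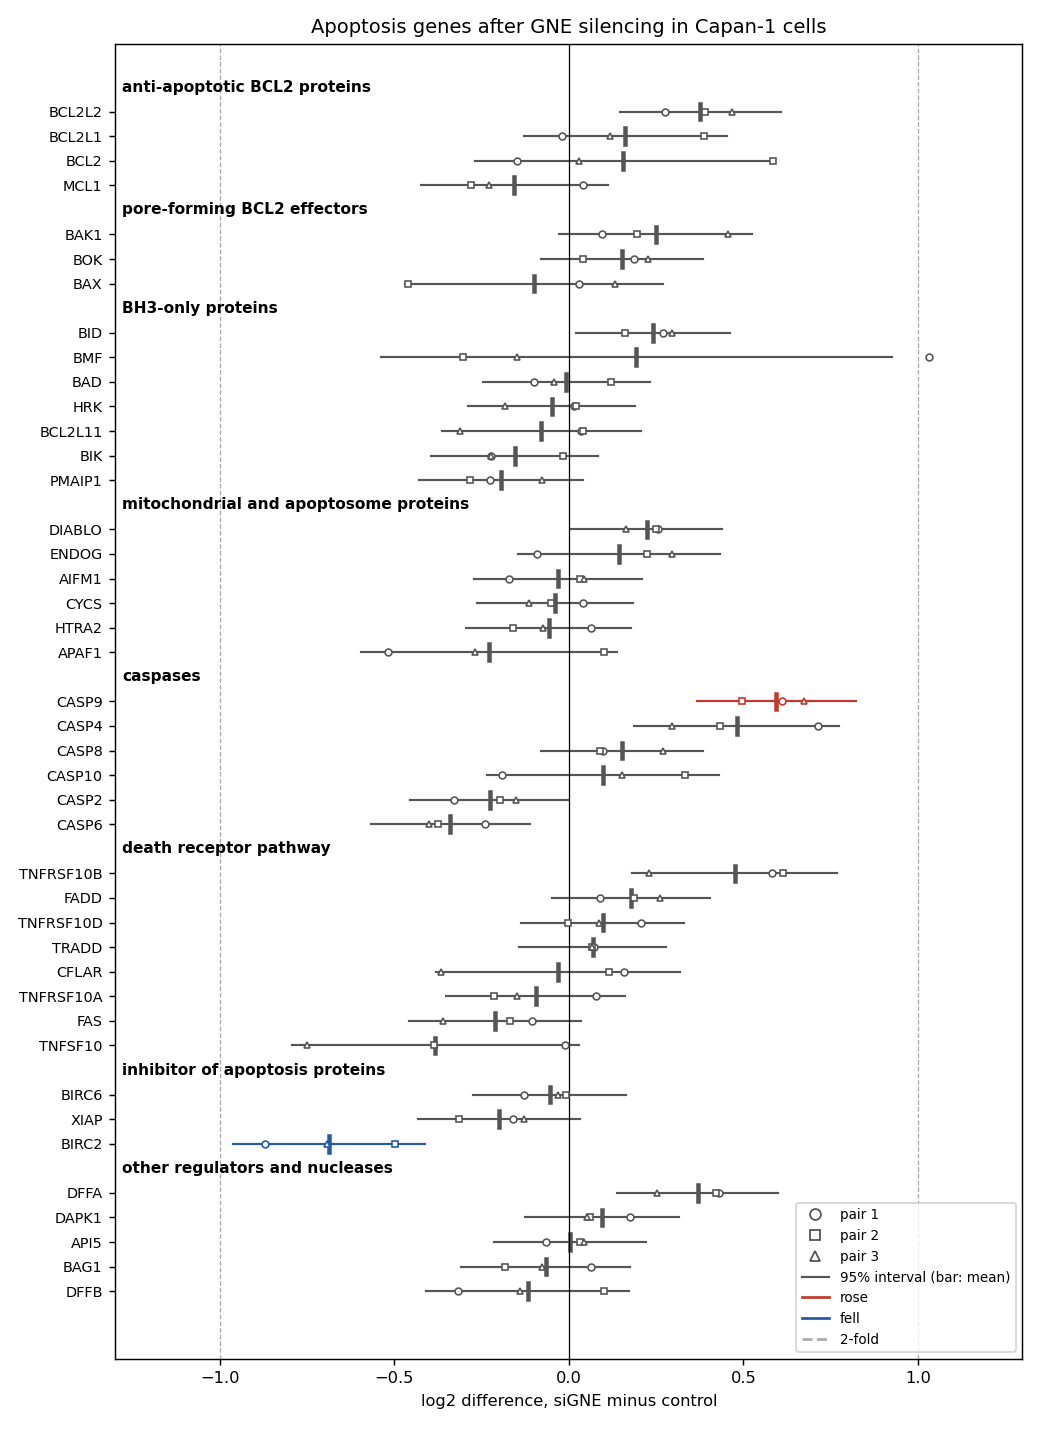
Log2 differences, siGNE minus control, of the 42 tested apoptosis genes by class. Open symbols are the 3 pairs, thick ticks the means and thin lines the 95% intervals of the limma fit with the replicate block. CASP9 in red (0.59) and BIRC2 in blue (-0.69) are the called genes, and no interval reaches the dashed lines of a 2-fold change.

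The stretches around the starts of CASP9 and BIRC2 are shown because these are the called genes. They come from RefSeq on GRCh38.p14 and hold 250 bases before and 50 after the first start listed, 5′ to 3′ on the gene's strand. That of CASP9 is chr1:15524166-15524465 on the minus strand, and that of BIRC2 is chr11:102346964-102347263 on the plus strand. Capitals mark the motifs found among those searched on both strands: the GC box GGGCGG, the cyclic AMP response element TGACGTCA, the C/EBP-ATF element TGATGNAA and the antioxidant element TGACNNNGC. Neighbouring GC boxes can overlap.
CASP9: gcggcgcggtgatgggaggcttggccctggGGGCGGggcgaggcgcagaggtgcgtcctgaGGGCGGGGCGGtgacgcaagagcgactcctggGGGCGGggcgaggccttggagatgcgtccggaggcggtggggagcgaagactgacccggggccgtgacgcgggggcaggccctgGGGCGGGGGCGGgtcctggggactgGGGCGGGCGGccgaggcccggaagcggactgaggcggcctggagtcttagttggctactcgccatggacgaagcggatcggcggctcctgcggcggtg
BIRC2: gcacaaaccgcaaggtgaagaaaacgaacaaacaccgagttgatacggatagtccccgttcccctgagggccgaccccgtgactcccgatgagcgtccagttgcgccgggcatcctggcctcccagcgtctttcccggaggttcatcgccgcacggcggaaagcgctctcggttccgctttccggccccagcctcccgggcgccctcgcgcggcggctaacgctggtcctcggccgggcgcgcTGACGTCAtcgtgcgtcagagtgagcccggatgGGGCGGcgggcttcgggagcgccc

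The CASP9 window held 8 GC boxes and none of the other motifs, and the BIRC2 window held 1 GC box and 1 cyclic AMP response element. GC content was 76.0% for CASP9 and 68.7% for BIRC2. A promoter was listed for 33 of the 42 tested members, and 75.8% of these held a GC box, against 71.1% of the 8873 tested genes with a listed promoter and 44.6% of all 27305 promoters. BIRC2 was the 1 member with the cyclic AMP response element, or 3.03% of members, against 3.31% of tested genes and 1.98% of all promoters. The C/EBP-ATF element was found in 1 member, HRK (3.03% of members, 1.65% of tested genes, 3.67% of all promoters), and the antioxidant element in 8, BAD, BAX, BCL2L1, CASP4, CFLAR, FAS, HRK and XIAP (24.2% of members, 15.5% of tested genes, 13.6% of all promoters). A match is a stretch of letters and not a binding site.

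Among the caspases, CASP9 was the gene that rose. Its log2 values were 8.04, 8.06 and 7.63 in control and 8.65, 8.56 and 8.30 in siGNE cells, so that every siGNE array stood above every control array. The pairs differed by 0.61, 0.50 and 0.67. A second probe set for CASP9, one prone to cross-hybridisation, differed by 0.48 and did not pass (limma adjusted p 0.0792 with the block). The median over both probe sets was 0.54, and by that reading CASP9 did not pass either.

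Of the other 5 caspases none passed in limma with the block, where the background is 9.9%. CASP4, an inflammatory caspase that senses bacterial lipopolysaccharide, had log2 values of 9.51, 9.55 and 8.87 in control and 10.23, 9.99 and 9.17 in siGNE cells. The groups overlapped because both arrays of pair 3 were low, and within the pairs CASP4 differed by 0.71, 0.43 and 0.30 (mean 0.48, SE 0.11, limma adjusted p 0.0640). A second CASP4 probe set, with low signal, differed by 0.20 with pairs of both signs (limma adjusted p 0.452). CASP6, an effector caspase that cleaves lamins, read 10.21, 10.50 and 10.20 in control and 9.97, 10.12 and 9.80 in siGNE cells. All siGNE values of CASP6 were below all control values, with a mean difference of -0.34 (SE 0.09, limma adjusted p 0.0749). A second CASP6 probe set, one prone to cross-hybridisation, was lower in each pair with overlapping groups (difference -0.08, limma adjusted p 0.540).

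CASP8, the initiator caspase of the receptor route, read 10.57, 10.68 and 10.22 in control and 10.67, 10.77 and 10.49 in siGNE cells. The CASP8 groups overlapped, and the difference of 0.15 had a 95% interval from -0.08 to 0.38. CASP2, a caspase activated on the PIDD1 platform, differed by -0.23 (95% interval -0.46 to 0.00, limma adjusted p 0.160), with all siGNE values below all control values. CASP10, a relative of CASP8 near the filter at 4.63 in control cells, differed by 0.10 (limma adjusted p 0.646). As a class the 6 caspases had differences from -0.34 to 0.59 with a median of 0.12, 3 of them higher and 2 lower in all pairs.

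All 3 tested inhibitor of apoptosis proteins of the chosen set were lower in every pair on the probe sets used, as were 30.9% of all tested genes. Of these 3, BIRC2 was the one that fell. Outside the set, BIRC7 of this family had pairs of both signs (0.15, 0.08 and -0.51) and a mean difference of -0.09. BIRC5, also outside the set, was lower in each pair without overlap and did not pass (difference -0.58, limma adjusted p 0.0525 with the block). BIRC2, a ubiquitin ligase that acts on receptor complexes, had log2 values of 11.30, 11.34 and 11.30 in control and 10.43, 10.84 and 10.61 in siGNE cells. Control arrays lay close together (SD 0.03, n = 3) and all siGNE arrays lay below them (SD 0.21, n = 3). The pairs differed by -0.87, -0.50 and -0.69, and BIRC2 had 1 probe set only.

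XIAP, the member of this family that binds and blocks caspases directly, read 9.75, 9.88 and 9.73 in control and 9.59, 9.57 and 9.60 in siGNE cells. The groups did not overlap, yet the difference of -0.20 (95% interval -0.43 to 0.03) did not pass, at a limma adjusted p of 0.203. All 6 tested XIAP probe sets had differences below 0, from -0.31 to -0.05, and none passed. Those at -0.05 and -0.07 were higher in pair 3 (0.30 and 0.22). BIRC6, a very large member with ubiquitin-conjugating activity, differed by -0.06 (95% interval -0.28 to 0.16). Its pairs differed by -0.13, -0.01 and -0.03, and its second probe set (-0.02) was higher in pair 3 (0.13). The median over the 3 genes was -0.20.

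**Figure D3:**
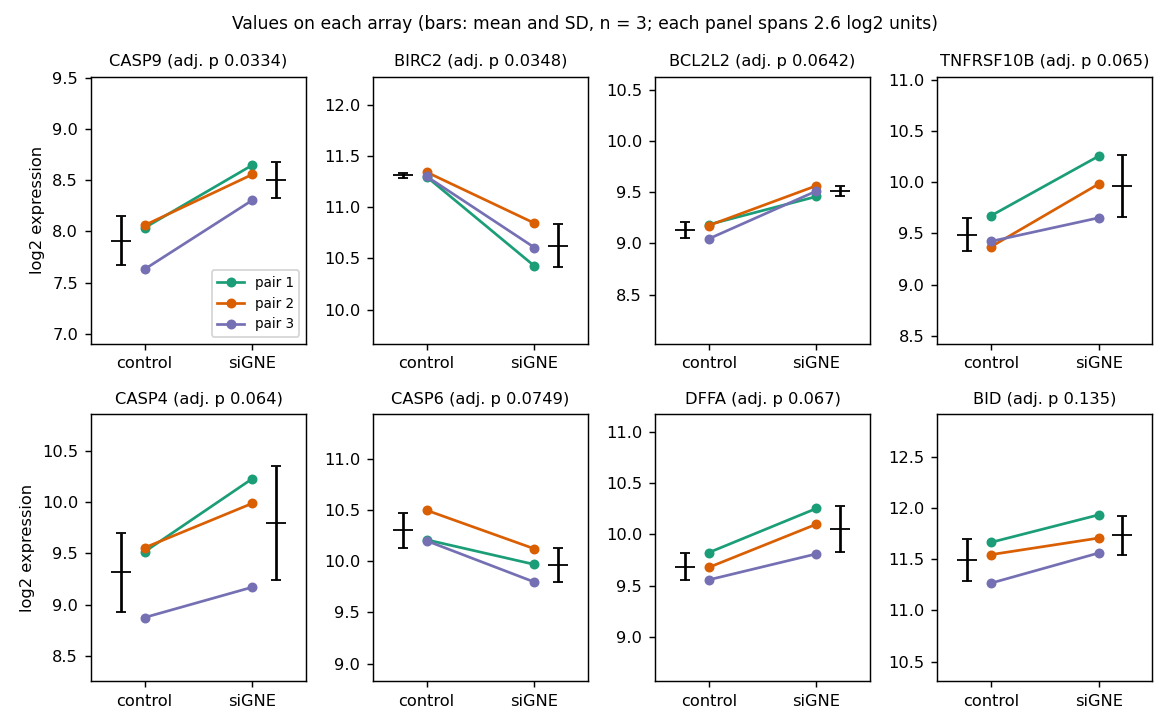
Log2 expression of 8 apoptosis genes on each array, with lines joining the control and siGNE arrays of one pair and black bars for the mean and SD of each group (n = 3). Panels show the called genes CASP9 and BIRC2 first, then the 5 members with limma adjusted p between 0.05 and 0.1 and BID. Every panel spans the same height, and in all 8 genes the 3 lines slope the same way. All 8 have a small p in the paired limma fit, BID included (unadjusted p 0.0379), which favours such agreement. Of all tested genes, 57.9% keep one sign.

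None of the 4 tested anti-apoptotic BCL2 proteins passed in limma with the block, where the background is 9.9%. BCL2L2 (BCL-w) had log2 values of 9.18, 9.17 and 9.04 in control and 9.46, 9.56 and 9.51 in siGNE cells, with no overlap. Its difference was 0.38 (SE 0.09, limma adjusted p 0.0642), and its second probe set differed by 0.52 (limma adjusted p 0.0557). BCL2L2 passed at a mean filter above 6, with a trended variance and with median centring, at adjusted p between 0.0408 and 0.0472.

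The 3 best known members of the class showed no shared direction. MCL1, a short-lived protein that holds BAK1 in check, read 12.54, 13.00 and 12.97 in control and 12.58, 12.72 and 12.74 in siGNE cells. The MCL1 groups overlapped (difference -0.16, 95% interval -0.42 to 0.11), and its 5 tested probe sets ran from -0.16 to 0.40. BCL2L1 (BCL-X) read 9.97, 9.36 and 10.32 in control and 9.95, 9.75 and 10.44 in siGNE cells, a difference of 0.16 (95% interval -0.13 to 0.45) with overlapping groups. The spread between pairs of BCL2L1 exceeded its difference in either group (SD 0.49 in control, 0.36 in siGNE cells).

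BCL2, the founding member, read 4.40, 3.60 and 4.13 in control and 4.25, 4.18 and 4.15 in siGNE cells. These values lie at the filter limit, where a change can be lost, and the difference of 0.15 came from pair 2 (0.58, against -0.15 and 0.03 in pairs 1 and 3). BCL2A1, an anti-apoptotic gene induced by NF-kB, read 2.51 in both groups, at background, and was not tested.

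The pore-forming effectors did not pass in limma with the block, where the background is 9.9%. BAX read 8.76, 8.71 and 9.35 in control and 8.78, 8.24 and 9.48 in siGNE cells, with overlapping groups and a difference of -0.10 (95% interval -0.47 to 0.27). The BAX difference was 0.03, -0.46 and 0.13 in the pairs, so its sign rested on pair 2. BAK1 read 7.95, 7.46 and 7.46 in control and 8.05, 7.66 and 7.92 in siGNE cells, higher in each pair with overlapping groups (difference 0.25, 95% interval -0.03 to 0.52, limma adjusted p 0.189). BOK, a less studied effector, differed by 0.15 (95% interval -0.08 to 0.38, limma adjusted p 0.305), with 9.95, 9.74 and 9.56 in control and 10.13, 9.78 and 9.79 in siGNE cells. BAK1 and BOK were thus higher in all pairs while BAX was not.

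The BH3-only proteins, the stress sensors of the family, had 7 tested members. In limma with the block, 0 of their representative probe sets passed (1 at an unadjusted p under 0.05), against 9.9% (32.5%) of all tested genes. BID, which CASP8 cleaves to carry the receptor signal to mitochondria, read 11.66, 11.54 and 11.27 in control and 11.93, 11.71 and 11.56 in siGNE cells. The groups overlapped, each pair was higher, and the difference was 0.24 (SE 0.09, limma adjusted p 0.135). Another BID probe set rose by 0.61 (limma adjusted p 0.0319 with the block and 0.225 without it), and the third differed by 0.36 (limma adjusted p 0.108). All 3 BID probe sets were therefore higher, one of them past the threshold.

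BCL2L11 (BIM) and PMAIP1 (NOXA) are known as transcriptional outputs of cell stress. BCL2L11 read 7.88, 8.13 and 7.71 in control and 7.92, 8.17 and 7.40 in siGNE cells, with overlap and a difference of -0.08 (95% interval -0.36 to 0.21). Its 4 tested probe sets did not share a sign, at -0.08, 0.17, 0.22 and 0.48, and none passed. PMAIP1 read 10.68, 10.61 and 10.75 in control and 10.45, 10.32 and 10.68 in siGNE cells, overlapping at the pair 3 array of the siGNE group. PMAIP1 differed by -0.20 (95% interval -0.43 to 0.04, limma adjusted p 0.216).

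The remaining BH3-only genes varied around 0. BIK, which sits at the endoplasmic reticulum, differed by -0.15, and BAD, which growth factor signalling phosphorylates, by -0.01. HRK, a neuronal member read at 4.37 in control cells, differed by -0.05. BMF, which is tied to the cytoskeleton, had the widest spread over pairs of all members, at 1.03, -0.30 and -0.15. Its control array of pair 1 was low (6.13, against 6.83 and 6.65) and its siGNE array of pair 1 high (7.16, against 6.53 and 6.50). Over the 7 genes the median difference was -0.05, with 1 higher and 2 lower in all pairs.

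The proteins that mitochondria release, and the scaffold they act on, did not pass either (0 of 6 in limma with the block, 1 at an unadjusted p under 0.05). The shares over all tested genes were 9.9% and 32.5%. Cytochrome c (CYCS) read 14.13, 14.04 and 14.06 in control and 14.17, 13.99 and 13.95 in siGNE cells, with overlapping groups and a difference of -0.04 (95% interval -0.26 to 0.18). APAF1, which assembles with cytochrome c into the apoptosome that activates CASP9, read 8.10, 7.74 and 7.90 in control and 7.58, 7.84 and 7.63 in siGNE cells. The APAF1 groups overlapped and pair 2 had the opposite sign (difference -0.23, 95% interval -0.60 to 0.14, limma adjusted p 0.327). CASP9 and its scaffold thus gave different readings, though the difference between them was not tested.

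DIABLO (SMAC), which displaces inhibitor of apoptosis proteins from caspases, read 10.15, 10.20 and 10.07 in control and 10.41, 10.45 and 10.24 in siGNE cells. All DIABLO values of siGNE cells were above all control values, with a difference of 0.22 (SE 0.08) that did not pass (limma adjusted p 0.150). The protease HTRA2 (-0.06), the flavoprotein AIFM1 (-0.03) and the nuclease ENDOG (0.14) had pairs of both signs. The class ran from -0.23 to 0.22 with a median of -0.04.

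In limma with the block, 9.9% of all tested genes passed and 32.5% had an unadjusted p under 0.05. Of the 8 tested genes of the death receptor pathway, none passed and 1 had an unadjusted p under 0.05. That gene, TNFRSF10B, encodes the TRAIL receptor DR5. Its log2 values were 9.67, 9.37 and 9.42 in control and 10.25, 9.98 and 9.65 in siGNE cells. The groups overlapped narrowly, since the siGNE array of pair 3 read just under the control array of pair 1, and the difference was 0.48 (SE 0.11, limma adjusted p 0.0650 with the block and 0.327 without it). Its other 2 tested probe sets, both prone to cross-hybridisation, differed by 0.44 and 0.61 and did not pass. With a mean filter above 6 TNFRSF10B passed at an adjusted p of 0.0370.

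The ligand TNFSF10 (TRAIL) differed in the other direction. It read 8.57, 8.08 and 7.12 in control and 8.56, 7.69 and 6.37 in siGNE cells, the widest spread between pairs within a group (SD 0.74 and 1.10), and the difference was -0.38 (SE 0.16, limma adjusted p 0.179). A second probe set, one prone to cross-hybridisation, fell by 0.42 (limma adjusted p 0.0470 with the block and 0.755 without it), and the third differed by -0.64 (limma adjusted p 0.1003). All 3 TNFSF10 probe sets were thus lower, while the one chosen for its signal did not pass.

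FAS, the receptor of FAS ligand, read 9.97, 9.65 and 9.43 in control and 9.86, 9.49 and 9.07 in siGNE cells. The groups overlapped and each pair was lower (difference -0.21, 95% interval -0.46 to 0.04, limma adjusted p 0.207), and all 4 tested FAS probe sets were lower, from -0.45 to -0.21. TNFRSF10A (DR4) differed by -0.10 and the decoy receptor TNFRSF10D by 0.10, both with pairs of different sign. Of the adaptors, FADD differed by 0.18 (95% interval -0.05 to 0.41) and TRADD by 0.07 (95% interval -0.14 to 0.28), both higher in all 3 pairs. The receptors of one pathway therefore did not share a direction, and the class had a median difference of 0.02.

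CFLAR (c-FLIP), the inactive relative of CASP8 that blocks it at the receptor, read 7.38, 7.43 and 6.85 in control and 7.54, 7.54 and 6.48 in siGNE cells. The difference of -0.03 (95% interval -0.38 to 0.32) turned positive under quantile normalization and median centring, at about 0.01 in both. CFLAR had 12 tested probe sets, the most of any member, which ran from -0.42 to 0.06, and none passed. The 2 with the highest signal, both prone to cross-hybridisation, differed by -0.30 and -0.29 (limma adjusted p 0.0913 and 0.104 with the block). Their siGNE values all lay below their control values. They had means of 10.42 and 10.35, against 7.21 for the probe set used.

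Among the remaining genes 0 of 5 passed in limma with the block, with 1 at an unadjusted p under 0.05 (9.9% and 32.5% over all tested genes). DFFA, the inhibitor and chaperone of the nuclease that cuts DNA in apoptosis, read 9.82, 9.68 and 9.56 in control and 10.25, 10.10 and 9.81 in siGNE cells. The groups overlapped at the ends, each pair was higher, and the difference was 0.37 (SE 0.09, limma adjusted p 0.0670), with 0.40 and 0.33 for its other probe sets. The nuclease itself, DFFB, differed by -0.12 with pairs of both signs. DAPK1, a calmodulin-regulated death kinase, read 10.14, 10.55 and 10.59 in control and 10.31, 10.61 and 10.64 in siGNE cells, a difference of 0.10 (95% interval -0.13 to 0.32). API5 (0.003) and the chaperone regulator BAG1 (-0.07) were close to 0, although a weaker BAG1 probe set differed by -0.87 (limma adjusted p 0.0618). DAPK3 read 1.62 in both groups and was not tested.

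**Figure D4:**
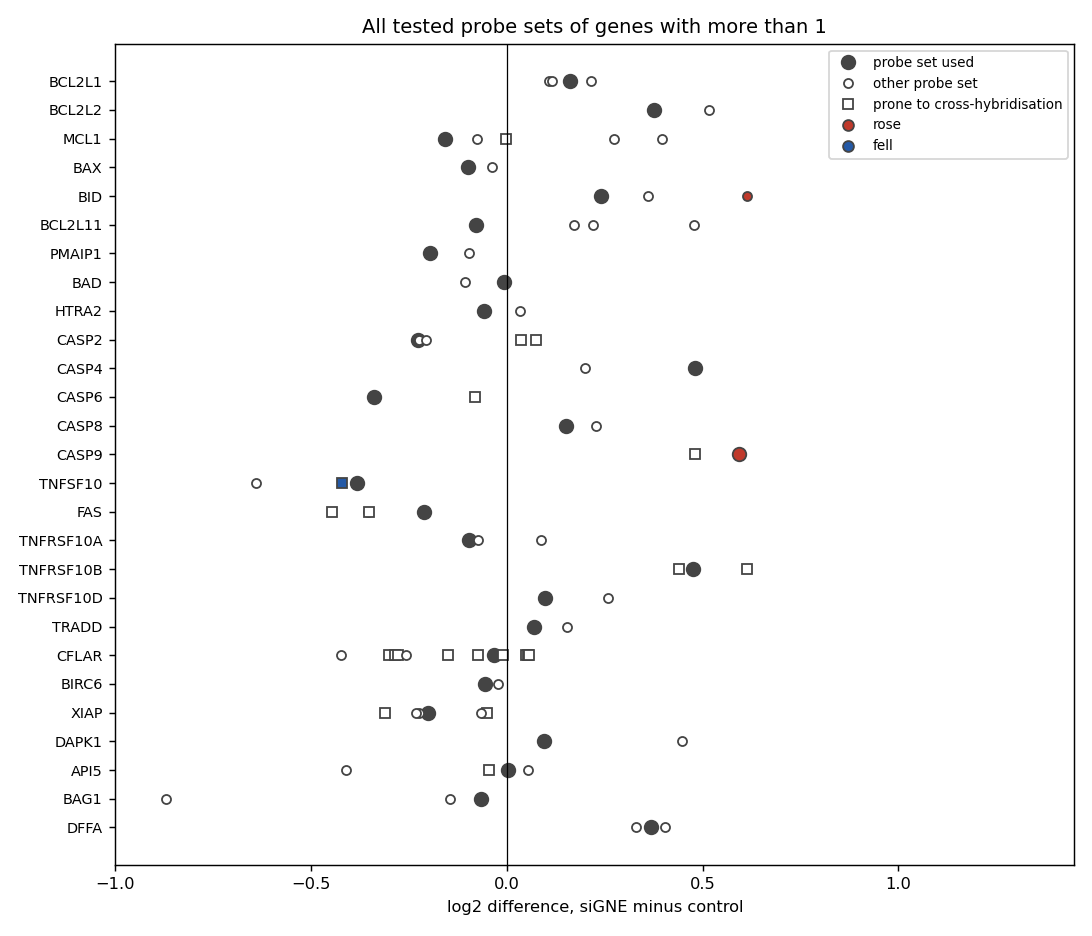
Log2 differences, siGNE minus control, of every tested probe set of the 27 apoptosis genes with more than 1. Large filled points are the probe sets used for the gene, squares those prone to cross-hybridisation, and colour marks calls of the limma fit with the replicate block. In 20 genes all probe sets fall on one side of 0, and in 7 they do not.

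Probe sets of one gene mostly shared a sign. The members had 103 tested probe sets, and of 27 genes with more than 1, 20 had differences of one sign throughout and 7 did not (MCL1, BCL2L11, HTRA2, CASP2, TNFRSF10A, CFLAR and API5). Of the 61 probe sets beside those used, 14 had the opposite sign and 2 passed, those of BID and TNFSF10 given above. That makes 4 of 103 member probe sets called, or 3.88%, against 9.49% of all tested probe sets. A pair of CASP2 probe sets with low signal moved widely between pairs, from -1.91 to 1.25 and from -1.69 to 0.82, and their means of -0.20 and -0.23 are not well determined.

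Members known as outputs of stress signalling were set beside 4 other genes of that signalling, not all of them regulators. DDIT3 (CHOP), the stress transcription factor, rose by 2.12, ATF4 by 0.70, TRIB3 by 1.96 and CHAC1 by 3.75 (limma adjusted p with the block 0.0131, 0.0284, 0.0131 and 0.0155). Without it DDIT3 alone of these 4 passed, at a limma adjusted p of 0.0291, against 0.0967 for ATF4, 0.0635 for TRIB3 and 0.0603 for CHAC1. Of the members linked in the literature to ATF4 or CHOP, TNFRSF10B differed by 0.48, BCL2L11 by -0.08 and PMAIP1 by -0.20, and 0 of these 3 passed with the block in limma (1 at an unadjusted p under 0.05). Of 8 tested members linked to p53 (BAX, PMAIP1, FAS, TNFRSF10B, APAF1, BID, TNFRSF10A and TNFRSF10D) 0 passed with the block in limma, 2 had an unadjusted p under 0.05, and the median was -0.10. Of 5 tested members linked to NF-kB (CFLAR, BCL2L1, XIAP, BIRC2 and FAS) 1 fell, BIRC2, and the median was -0.20. These lists share genes with each other and with the classes above. In the same fit 9.9% of all tested genes were called and 32.5% had an unadjusted p under 0.05, and the lists were not tested against these shares.

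Other genes of apoptosis outside the 47 gave a count near the background. Of 52 listed, 48 had a probe set of their own and 32 were tested, and 1 rose and 2 fell in limma with the block, where 9.9% of tested genes were called. BCL2L13, a mitochondrial relative of BCL2, read 10.00, 9.75 and 9.57 in control and 10.50, 10.41 and 9.98 in siGNE cells, and rose by 0.52 (SE 0.09, adjusted p 0.0422) with overlapping groups. PARP1, a DNA damage sensor cleaved by caspases in dying cells, read 11.47, 11.33 and 11.55 in control and 10.54, 10.76 and 10.92 in siGNE cells. It fell by 0.70 (SE 0.11, adjusted p 0.0345) without overlap. VDAC3, a channel of the outer mitochondrial membrane, read 13.51, 13.54 and 13.07 in control and 12.19, 12.86 and 12.29 in siGNE cells, and fell by 0.93 (SE 0.15, adjusted p 0.0361), also without overlap. In limma with no block, 0 of the 32 passed and 5 had an unadjusted p under 0.05. The shares of all tested genes in that fit were 0.028% and 16.3%. Its adjusted p was 0.297 for BCL2L13, 0.122 for PARP1 and 0.159 for VDAC3. Leaving out pair 1, 2 or 3 left 0 called there, with 9, 8 and 6 at an unadjusted p under 0.05. The median over the 32 was -0.09.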

How the data were processed

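The authors deposited 1 table of log2 expression values for 54675 probe sets on 6 arrays, made with GCRMA per the submitters' processing notes. The sources used here name neither its version nor a chip definition. That the scale is log2 follows from the range of the values. Per the labels' protocols cRNA came from 300 ng of total RNA. The number of arrays limits the precision.

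Of the probe sets, 41097 had 1 gene symbol in the platform annotation, 1801 several and 11777 none. Symbols were updated by gene identifier through RefSeq (GRCh38.p14, 41043 matched). Probe sets marked _x_at were used only where a gene had no other. limma 3.58.1 in R 4.3.3 (lmFit, eBayes) compared siGNE with control over 22085 probe sets, without 62 control probe sets, with Benjamini-Hochberg adjustment, a threshold of 0.05 and the title number as a block (2 residual degrees of freedom, against 4 without it). Over tested probe sets, deviations from the group means correlated at 0.58, 0.71 and 0.83 between arrays of the same number and at -0.64 to 0.17 otherwise. Deviations sum to 0 within each group, so positive values at the same number draw the others down. The contrast between them is therefore partly built in. The fit was tested on simulated data.

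The members, classes and lists were chosen with earlier results of these data known. Array values are given for called members, the 2 members of each class with the smallest p, and a fixed set of well known genes. Values of the other members named and of single probe sets were picked after they were seen. The alternatives concerned the block, filters, a floor, normalization, variances, weights, probe sets, the threshold and left-out arrays.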

Additional observations from a re-analysis of the deposited data

How the results depend on the processing

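With 3 pairs the calls are few and near the threshold. The count of apoptosis genes called in limma, 2 with the replicate block, was 0 with no replicate block (4 at an unadjusted p under 0.05), 0 with no filter on the mean (14), 6 with a mean above 6, 7 with a trended variance, 1 with the median over a gene's probe sets and 7 at an adjusted p under 0.1. For the other apoptosis genes, 3 became 0 (5 at an unadjusted p under 0.05), 0 (10), 7, 7, 2 and 8 under these settings, 6 with quantile normalization, 6 with median centring, 5 with array weights and 5 with the probe set of the largest interquartile range. With a replicate or a single array left out, both counts were 0 throughout in limma, with 3 to 8 and 3 to 9 at an unadjusted p under 0.05, in fits with fewer arrays. Outside the main fit and the fit with no block, the share of all tested genes called was not computed. The GNE difference of -1.88 kept its sign and its value without the block (adjusted p 0.131) and with no filter (adjusted p 0.265), and ran from -2.17 to -1.44 with arrays left out.

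CASP9 stayed between 0.45 and 0.69 and BIRC2 between -0.80 and -0.59 over all settings. Signs changed for genes that never passed. With arrays left out, BCL2 ran from -0.068 to 0.33, BCL2L1 from -0.10 to 0.38, BAX from -0.42 to 0.20, BCL2L11 from -0.25 to 0.14, CYCS from -0.11 to 0.0032, TNFSF10 from -0.89 to 0.20, CFLAR from -0.22 to 0.32 and DAPK1 from -0.047 to 0.20. CFLAR was 0.0097 with quantile normalization and 0.0096 with median centring, CYCS was 0.00039 with median centring, and BCL2L11 was 0.20 with the median and 0.48 with the most variable of its probe sets. Of the genes called with the block that are named outside these lists, GNE, COL1A1, ATF4, TRIB3 and CHAC1 did not pass without it, and DDIT3 did.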
